A study of Mus musculus with 3 samples.

Results

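The let-7 family with miR-98 was followed through 3 small RNA libraries of mouse fibro/adipogenic progenitors. The members are the 5p arms of let-7a, let-7b, let-7c, let-7d, let-7e, let-7f, let-7g and let-7i and of miR-98, named mmu-let-7a-5p and so on in the table. They were picked out by name, and table entries carrying the same member name were summed. These 9 mature miRNAs are 9 of the 659 mature mouse names, and of 1097 items in all, in the deposited count table, and all 9 were detected in every library.

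Fibro/adipogenic progenitors (FAPs) are mesenchymal cells that lie between muscle fibres and can become fibroblasts or adipocytes. The cardiotoxin library came from FAPs of muscle injected 5 days earlier with this snake venom toxin, which destroys fibres and starts regeneration. The denervated library came from FAPs of muscle 3 weeks after surgery that denervated it at the sciatic nerve, and the normal library from FAPs of uninjured muscle. All mice are labelled WT, the cells were used as primary cells with no culture step, and each condition is 1 library. The sources used here give no strain, age or sex of the mice, no sorting markers and no number of mice behind a library.

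The let-7 miRNAs are short RNAs that guide Argonaute proteins to messenger RNAs, mainly through the seed, the bases near the 5′ end that pair with the target. They were found in Caenorhabditis elegans as timers of larval development, and in mammals they accumulate as cells differentiate and repress growth genes such as Hmga2 and the Igf2bp genes. The RNA-binding protein LIN28 blocks the processing of many let-7 hairpins. miR-98 carries the same seed and is counted in the family for that reason.

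The 9 sequences are shown because they differ by only a few bases, and the results below turn on which of them a read was assigned to. All 9 names matched an entry of RefSeq (GRCm38.p6), and the deposited sequence of each equals that entry. They are written 5′ to 3′, with the seed, bases 2 to 8, in capitals.
let-7a-5p: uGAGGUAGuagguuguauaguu
let-7b-5p: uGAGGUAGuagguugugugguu
let-7c-5p: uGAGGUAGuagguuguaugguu
let-7d-5p: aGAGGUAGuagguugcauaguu
let-7e-5p: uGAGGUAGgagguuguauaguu
let-7f-5p: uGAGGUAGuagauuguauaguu
let-7g-5p: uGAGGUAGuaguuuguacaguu
let-7i-5p: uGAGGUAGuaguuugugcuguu
miR-98-5p: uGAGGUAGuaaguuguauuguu

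All 9 are 22 bases long and share 1 seed. Counted from 1 at the 5′ end and with let-7a first, let-7c differs by A19G, let-7e by U9G and let-7f by G12A. let-7b differs by A17G and A19G, let-7d by U1A and U16C, let-7g by G12U and U18C, and miR-98 by G11A and A19U. let-7i is the most distant from let-7a, with G12U, A17G, U18C and A19U.

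The single base between let-7a and let-7c matters for these files. The table lists the let-7a-5p name on 2 rows, and the larger row carries the let-7c-5p sequence.
let-7a-5p, second row: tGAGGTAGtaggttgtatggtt
The counts on that row are equal to those on the row named let-7c-5p in all 3 libraries. The shared counts were not whole numbers, at 12763.7 in cardiotoxin, 116566.7 in denervated and 56503.9 in normal FAPs. Counts with fractions arise when reads are divided over rows. The sources used here do not say whether the reads were divided over both rows or counted on both, and this was not tested. Summed by name, let-7a-5p therefore holds mostly let-7c sequence, so its exact row is also given alone. The family sum of each library and comparison is also given without the second row. Fractions were not confined to the shared rows. Of the 10 member rows, 9 were not whole in cardiotoxin, 9 in denervated and 10 in normal FAPs.

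The 9 miRNAs come from several places in the genome, given here as RefSeq has them on GRCm38.p6, with overlapping genes from GENCODE M21. Mirlet7i lies at chr10:122985640-122985724 (minus strand), in an exon of the transcribed pseudogene D630033A02Rik, and Mirlet7g at chr9:106178840-106178927 (plus strand), in an intron of Wdr82. Mirlet7d (chr13:48536012-48536114), Mirlet7f-1 (chr13:48537829-48537917) and Mirlet7a-1 (chr13:48538179-48538272) lie together on the minus strand in an exon of the long noncoding RNA 6720427I07Rik. Mirlet7f-2 (chrX:151912346-151912428) and Mir98 (chrX:151913214-151913321) share introns of Huwe1, a ubiquitin ligase gene, on the plus strand. Mirlet7c-2 (chr15:85706603-85706697) and Mirlet7b (chr15:85707319-85707403) lie in an exon of the noncoding gene Lncppara, on the plus strand.

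The remaining let-7 genes sit beside miR-99, miR-100 and miR-125 genes, with which they share primary transcripts. Mirlet7c-1 (chr16:77599657-77599750, plus strand) lies in an intron of Mir99ahg, next to Mir99a (chr16:77598936-77599000). Mirlet7e (chr17:17830352-17830444, plus strand) lies in an intron of Spaca6, next to Mir125a (chr17:17830812-17830879). Mirlet7a-2 (chr9:41536716-41536811, plus strand) lies in an intron of the noncoding gene 3110039I08Rik, between Mir100 (chr9:41531425-41531504) and Mir125b-1 (chr9:41581926-41582002). let-7a-5p, let-7c-5p and let-7f-5p are each made from 2 genes with the same mature sequence, so their 5p counts cannot be assigned to 1 gene.

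The libraries held 3636249 counts for cardiotoxin, 7193088 for denervated and 4471365 for normal FAPs. Levels are given as CPM, the count per 1000000 counts of the library. A single miRNA, miR-21a-5p, held 53.9% of the cardiotoxin, 10.4% of the denervated and 2.14% of the normal library, which lowers every other CPM value in the cardiotoxin library. Marker miRNAs of mesenchymal cells (8 of 9 listed were in the table) summed to 0.887% of the cardiotoxin, 15.8% of the denervated and 15.4% of the normal library, with miR-214-5p at 0 counts in cardiotoxin. The 8 leukocyte miRNAs summed to 2.40% of the cardiotoxin, 0.0762% of the denervated and 0.0422% of the normal library, with miR-223-5p and miR-511-3p at 0 counts in denervated and normal FAPs. The cardiotoxin library thus went against its FAP label in both lists. In these bulk libraries fewer cells of a type and less RNA per cell cannot be told apart. With 1 library per condition no difference below has a replicate check. The 95% Clopper-Pearson intervals cover counting error only, and without molecular identifiers the reads cannot be taken as independent molecules.

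The family made up 7.17% of the cardiotoxin, 11.6% of the denervated and 10.4% of the normal library, or 6.82%, 9.97% and 9.09% without the second let-7a row. mmu-let-7i-5p was the highest member by name in each library, at 25078 CPM in cardiotoxin, 21409 CPM in denervated and 20769 CPM in normal FAPs. It ranked 3 among the mature mouse miRNAs of the cardiotoxin library, and 13 in both the denervated and the normal library. mmu-let-7g-5p had 17499 CPM in cardiotoxin, 17296 CPM in denervated and 15344 CPM in normal FAPs, with ranks of 4, 19 and 23. mmu-let-7f-5p had 13162 CPM in cardiotoxin, 15692 CPM in denervated and 14061 CPM in normal FAPs, with ranks of 8, 21 and 25. These 3 members differed little between libraries in CPM, while their ranks were higher in the cardiotoxin library.

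mmu-let-7b-5p had 1858 CPM in cardiotoxin, 13758 CPM in denervated and 15816 CPM in normal FAPs. mmu-let-7c-5p had 3510 CPM in cardiotoxin, 16205 CPM in denervated and 12637 CPM in normal FAPs. If its reads were divided over both rows of its sequence, its level would be their sum, 7020 CPM in cardiotoxin, 32411 CPM in denervated and 25274 CPM in normal FAPs, which exceeds let-7i in the denervated and normal libraries. mmu-let-7e-5p had 554 CPM in cardiotoxin, 3639 CPM in denervated and 3792 CPM in normal FAPs. For all 3 of these members the cardiotoxin library was far below the other two, which lay close together. let-7b ranked 64 in the cardiotoxin library, 22 in the denervated and 21 in the normal library.

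mmu-let-7a-5p, with both rows summed, had 6021 CPM in cardiotoxin, 21201 CPM in denervated and 16192 CPM in normal FAPs. Its exact row alone had 2511 CPM in cardiotoxin, 4996 CPM in denervated and 3555 CPM in normal FAPs. The sequence that differs from let-7a at only 1 base therefore supplied most of the summed value in each library. mmu-let-7d-5p had 3287 CPM in cardiotoxin, 6306 CPM in denervated and 4512 CPM in normal FAPs. mmu-miR-98-5p was a low member, with 746 CPM in cardiotoxin, 351 CPM in denervated and 436 CPM in normal FAPs, and the only one below 1000 CPM in all 3 libraries. In the order of levels by name, with both let-7a rows summed, neighbouring members of a library had counting intervals that did not overlap. The exception was let-7i and let-7a in the denervated library. By its exact row let-7a would stand lower in the order of each library.

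**Figure D1:**
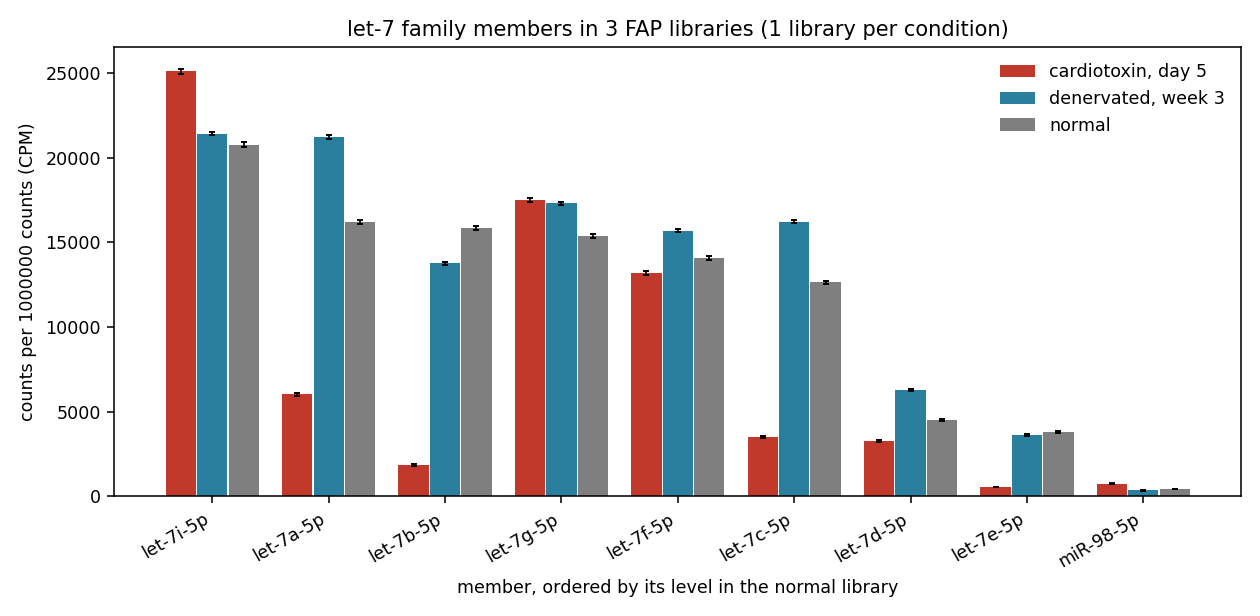
Level of each let-7 member in CPM in the cardiotoxin, denervated and normal library, 1 bar per library with its counting interval. For let-7i, let-7g and let-7f the bars of the libraries are of similar height. For let-7b, let-7c and let-7e the cardiotoxin bar is well below the others, as with let-7b at 1858, 13758 and 15816 CPM.

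Shares within the family do not depend on how the libraries are scaled against each other. let-7i, let-7g and let-7f together, a set put together after the values were seen, supplied 77.7% of the family's counts in cardiotoxin, 47.0% in denervated and 48.4% in normal FAPs. Without the second let-7a row these shares were 81.7% in cardiotoxin, 54.6% in denervated and 55.2% in normal FAPs. let-7i alone supplied 35.0% of the family in cardiotoxin, 18.5% in denervated and 20.1% in normal FAPs. let-7b, let-7c and let-7e, grouped in the same way, supplied 8.26% in cardiotoxin, 29.0% in denervated and 31.1% in normal FAPs. Counting both rows of the let-7c sequence, the same set supplied 13.2% in cardiotoxin, 43.0% in denervated and 43.3% in normal FAPs. The shares of these sets were thus close in the denervated and normal libraries, and stood apart in the cardiotoxin library.

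Member by member, the share of let-7b differed by the largest factor between cardiotoxin and normal FAPs, with 2.59% of the family in cardiotoxin, 11.9% in denervated and 15.3% in normal FAPs. let-7e held 0.772% in cardiotoxin, 3.14% in denervated and 3.66% in normal FAPs, and let-7c held 4.89%, 14.0% and 12.2% in the same order of libraries. Both rows of the let-7c sequence together held 9.79% in cardiotoxin, 28.0% in denervated and 24.4% in normal FAPs. miR-98 held 1.04% in cardiotoxin, 0.303% in denervated and 0.421% in normal FAPs, a higher share in the cardiotoxin library. let-7d, at 4.58% in cardiotoxin, 5.44% in denervated and 4.36% in normal FAPs, kept a similar share in all 3 libraries. The exact let-7a row did too, at 3.50% in cardiotoxin, 4.31% in denervated and 3.43% in normal FAPs.

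**Figure D2:**
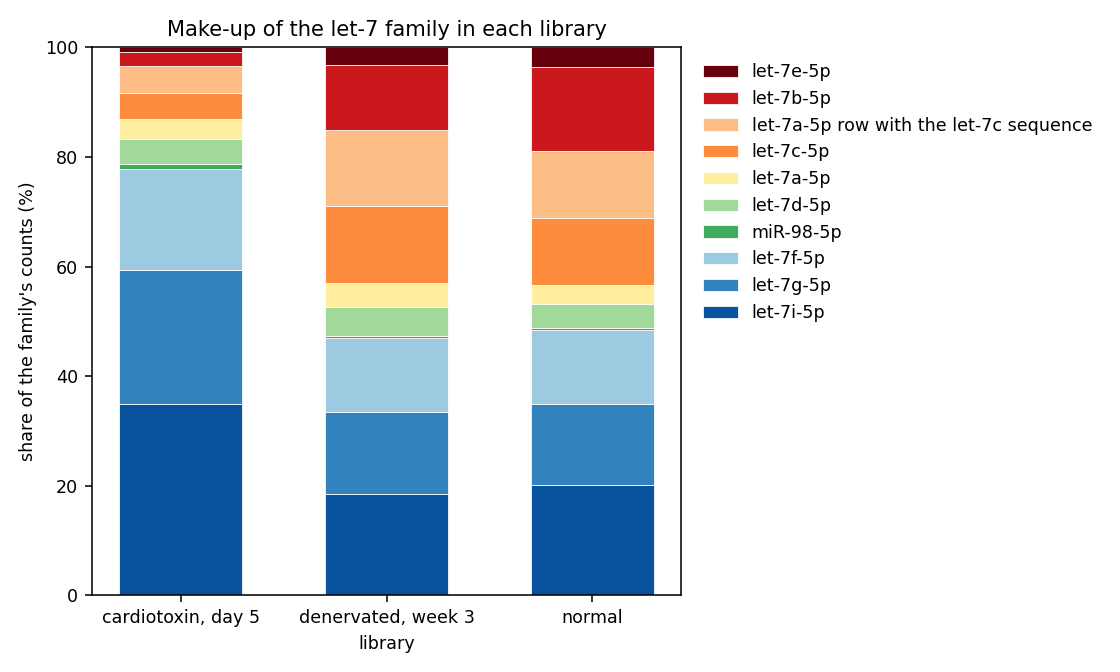
Percent of the summed let-7 counts supplied by each member in the cardiotoxin, denervated and normal library (stacked bars, 1 library each), with the 2 let-7a rows drawn apart. let-7i, let-7g and let-7f fill 77.7% of the cardiotoxin bar, 47.0% of the denervated and 48.4% of the normal bar.

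The first comparison sets the cardiotoxin library, taken after acute injury, against the normal library. let-7b-5p was 8.51-fold lower in cardiotoxin (interval 8.30 to 8.73), let-7e-5p 6.85-fold lower (6.54 to 7.18) and let-7c-5p 3.60-fold lower (3.53 to 3.67). let-7a-5p, with both rows summed, was 2.69-fold lower (2.65 to 2.73), and its exact row 1.42-fold lower (1.38 to 1.45). Without miR-21a-5p in the totals let-7c lost its 2-fold call, at a log2 ratio of -0.76, and so did let-7a, at -0.34, which also lost it without the 5 highest miRNAs, at -0.64. So 4 of 9 members were at least 2-fold lower, 3 of 9 if the exact let-7a row is used, and 0 of 9 at least 2-fold higher. Among the 446 items that averaged 10 CPM or more, 39.5% were at least 2-fold lower and 32.3% at least 2-fold higher in this comparison. The members' median log2 ratio was -0.46, against -0.09 for all 446 items.

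The other members differed less. miR-98-5p was 1.71-fold higher in cardiotoxin FAPs, with a log2 ratio of 0.77 that ran from 0.49 to 1.86 over the alternative settings. let-7d-5p had a log2 ratio of -0.46, let-7f-5p of -0.10, let-7g-5p of 0.19 and let-7i-5p of 0.27. None of these 4 kept its direction. The ratios of let-7d and let-7f turned positive when miR-21a-5p or the 5 highest miRNAs were left out of the totals. Those of let-7g and let-7i turned negative, at -0.10 and -0.02, with TMM factors. Without miR-21a-5p in the totals let-7f stood at 0.99, and let-7g at 1.27 and let-7i at 1.36 were past 2-fold higher. Summed, the family was 1.44-fold lower in cardiotoxin (log2 ratio -0.53, or -0.41 without the second let-7a row), but its log2 ratio turned to 0.55 without miR-21a-5p in the totals and to 0.26 without the 5 highest miRNAs. let-7b stayed at least 2-fold lower under every alternative, with log2 ratios from -3.38 to -2.00, and so did let-7e, from -3.06 to -1.69. In this same comparison the 8 leukocyte miRNAs had a median log2 ratio of 7.47 and the 8 mesenchymal miRNAs in the table one of -7.33, with each miRNA past 2-fold in its list's direction. Both endothelial miRNAs were also at least 2-fold higher in cardiotoxin, with a median log2 ratio of 1.80. The part of these lists in the members' ratios was not tested.

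**Figure D3:**
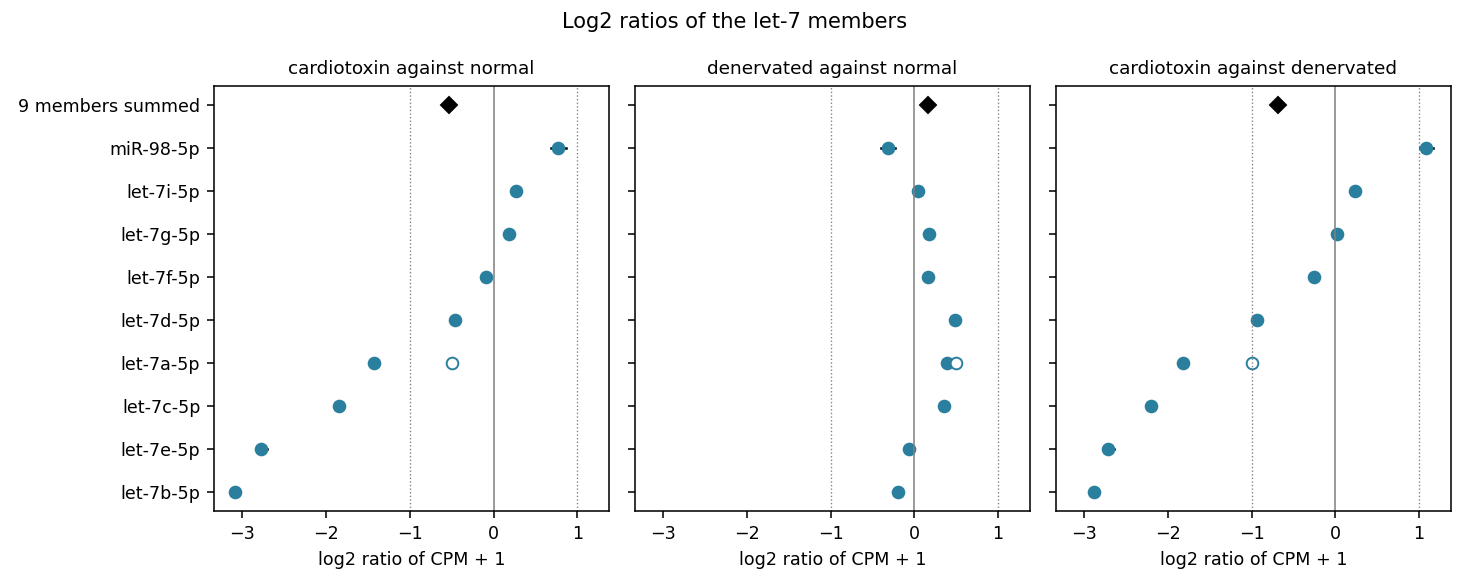
Log2 ratio of CPM + 1 for each member in the 3 comparisons, with the counting intervals as bars, an open circle for the exact let-7a row and a diamond for the 9 members summed. Cardiotoxin against normal spans -3.09 for let-7b to 0.77 for miR-98, while denervated against normal stays between -0.31 and 0.48; in the cardiotoxin panels the family sum turns positive when miR-21a-5p or the 5 highest miRNAs are left out of the totals, and the directions of let-7d, let-7f, let-7g and let-7i also depend on the scaling.

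Each let-7 hairpin also yields a 3p arm, the strand that is mostly discarded and that differs more between genes than the 5p arm does. It is shown here for the hairpins whose 3p arm differed most between cardiotoxin and normal FAPs and for let-7d, again from RefSeq with bases 2 to 8 in capitals.
let-7e-3p: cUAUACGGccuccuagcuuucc
let-7c-1-3p: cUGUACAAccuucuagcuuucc
let-7b-3p: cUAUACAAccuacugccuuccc
let-7a-1-3p: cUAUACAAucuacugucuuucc
let-7d-3p: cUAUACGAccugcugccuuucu
let-7c-2-3p has the same sequence as let-7a-1-3p, so that name cannot be assigned to 1 gene. The deposited rows of let-7e-3p and let-7d-3p hold the sequences shown. That of let-7c-1-3p is 1 base shorter at the 3′ end, and that of let-7b-3p has T in place of C at base 22. let-7a-1-3p has 2 rows. The larger, with 402 of 494.5 counts in cardiotoxin, has the same change at base 22, and the other is 1 base shorter.

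The table held 11 of these 3p names, and 8 averaged 10 CPM or more. let-7e-3p had 1.93 CPM (7 counts) in cardiotoxin, 71.9 CPM in denervated and 79.6 CPM in normal FAPs, and was 41.4-fold lower in cardiotoxin than in normal FAPs (interval 19.9 to 104). let-7c-1-3p, which reports on the Mirlet7c-1 gene alone, had 1.65 CPM (6 counts) in cardiotoxin, 27.4 CPM in denervated and 29.3 CPM in normal FAPs, and was 17.8-fold lower (7.94 to 49.3). let-7b-3p had 19.8 CPM in cardiotoxin, 130.0 CPM in denervated and 140.2 CPM in normal FAPs, and was 7.08-fold lower (5.54 to 9.17), close to the fold of its 5p arm. let-7a-1-3p had 136.0 CPM in cardiotoxin, 479 CPM in denervated and 631 CPM in normal FAPs. In all, 6 of the 8 were at least 2-fold lower in cardiotoxin than in normal FAPs, 1 was less than 2-fold lower and 1, let-7d-3p, was 1.13-fold higher, a log2 ratio of 0.18 that turned to -0.11 with TMM factors. Over the 446 items 39.5% were lower and 32.3% higher by that measure. Denervated against normal, 0 of these 8 reached 2-fold, where 6.28% of the 446 items did in each direction, and their log2 ratios lay between -0.46 and -0.09.

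The 3 names below that minimum were let-7g-3p, with 0 counts in cardiotoxin, 17 in denervated and 12 in normal FAPs, let-7a-2-3p, with 0, 12 and 5 counts, and miR-98-3p, with 13, 27 and 14 counts in the same order. At these counts only large differences would be detectable. The 3p arms of the 2 let-7f genes can be read apart, unlike their shared 5p arm. let-7f-1-3p had 8.53 CPM in cardiotoxin, 13.3 CPM in denervated and 18.8 CPM in normal FAPs, and let-7f-2-3p had 18.3 CPM, 55.2 CPM and 59.9 CPM in the same order. Their folds of cardiotoxin against normal were 2.20-fold lower (1.44 to 3.44) for let-7f-1-3p and 3.28-fold lower (2.51 to 4.39) for let-7f-2-3p, and neither kept its 2-fold call under every setting.

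The ratio of the arms of 1 hairpin, like the make-up of the family, does not depend on the scaling of the libraries. let-7d gave 91.2 counts of its 3p arm per 100 counts of its 5p arm in cardiotoxin (interval 88.9 to 93.6), 34.9 in denervated (34.2 to 35.5) and 58.7 in normal FAPs (57.4 to 60.1). It was the only hairpin examined whose arms were of similar abundance, and its 3 intervals do not overlap. let-7e gave 0.348 counts of 3p per 100 of 5p in cardiotoxin (0.140 to 0.718), 1.98 in denervated and 2.10 in normal FAPs. let-7f, with the 3p arms of both genes summed, gave 0.204 in cardiotoxin, 0.437 in denervated and 0.560 in normal FAPs, and let-7i gave 0.190, 0.329 and 0.361 in the same order. let-7g, with few counts of 3p, gave 0 in cardiotoxin (upper limit 0.0058), 0.0137 in denervated and 0.0175 in normal FAPs. For let-7e, let-7f, let-7i and let-7g the share of the 3p arm was thus lower in cardiotoxin than in both other libraries. let-7b did not show this, with 1.07 counts of 3p per 100 of 5p in cardiotoxin, 0.945 in denervated and 0.887 in normal FAPs, and overlapping intervals. The intervals of miR-98 also overlapped, at 0.479 in cardiotoxin, 1.07 in denervated and 0.719 in normal FAPs.

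The miR-99, miR-100 and miR-125 miRNAs that share transcripts with let-7 genes were listed by arm, 11 names in all. Those of the Mir99ahg transcript, which also carries Mirlet7c-1, were far lower in cardiotoxin FAPs. miR-99a-5p had 1441 CPM in cardiotoxin, 54157 CPM in denervated and 70613 CPM in normal FAPs, 49.0-fold lower in cardiotoxin than in normal FAPs (47.7 to 50.4). The row named miR-100-5p carries the same deposited sequence and the same values, so these rows cannot be told apart. The 49.0-fold therefore cannot be assigned to miR-99a or to miR-100 alone. miR-99a-3p had 0 counts in cardiotoxin, 1143 in denervated and 710 in normal FAPs, at least 192-fold lower in cardiotoxin than in normal FAPs when 3 counts are taken as the limit of that library. miR-125b-5p, made from a gene beside Mirlet7a-2 and from another beside Mirlet7c-1, had 664 CPM in cardiotoxin, 55358 CPM in denervated and 58043 CPM in normal FAPs, 87.4-fold lower.

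The arms made beside let-7e were lower by less. miR-99b-5p had 2499 CPM in cardiotoxin, 10490 CPM in denervated and 13708 CPM in normal FAPs. miR-125a-5p had 2035 CPM in cardiotoxin, 24836 CPM in denervated and 25309 CPM in normal FAPs, 12.4-fold lower in cardiotoxin than in normal FAPs, beside 6.85-fold for let-7e-5p of the same transcript. Of the 10 names that averaged 10 CPM or more, all were at least 2-fold lower in cardiotoxin than in normal FAPs, as were 39.5% of the 446 items. Their median log2 ratio was -5.30, or -4.99 over 9 names with the repeated miR-100-5p row left out, against -0.46 for the let-7 members. Denervated against normal, 0 of 10 reached 2-fold, beside 6.28% of the items in each direction, and the ratios lay between -0.53 and 0.00. Summed, these names were 0.816% of the cardiotoxin, 20.1% of the denervated and 24.0% of the normal library, or 0.672%, 14.7% and 17.0% without the repeated row.

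**Figure D4:**
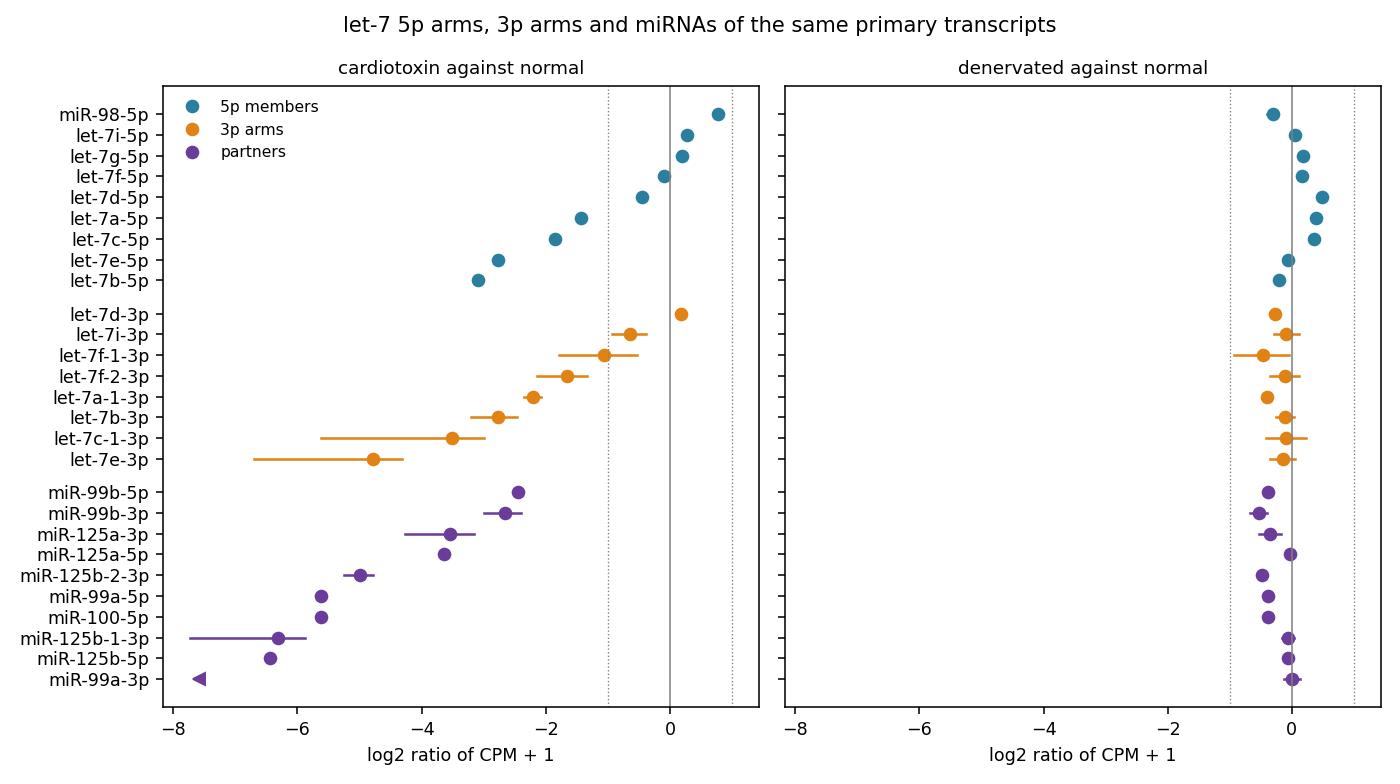
Log2 ratios of CPM + 1 for let-7 5p arms, let-7 3p arms and the miR-99, miR-100 and miR-125 arms of the same primary transcripts, with counting intervals as bars and an arrow where a count of 0 makes the ratio a bound. In cardiotoxin against normal the partner miRNAs lie furthest below 0, with a median of -5.30, while in denervated against normal the points stay near 0; the directions of let-7d, let-7f, let-7g and let-7i 5p and of let-7d-3p in the cardiotoxin panel depend on the scaling.

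The second comparison sets the denervated library against the normal one, and it shares the normal library with the comparison above. None of the 9 members reached 2-fold in either direction, where 6.28% of the 446 items were at least 2-fold higher and 6.28% at least 2-fold lower. let-7d-5p was 1.40-fold higher in denervated FAPs (1.37 to 1.42), let-7a-5p 1.31-fold higher, or 1.41-fold for its exact row, and let-7c-5p 1.28-fold higher. let-7g-5p was 1.13-fold, let-7f-5p 1.12-fold and let-7i-5p 1.03-fold higher. miR-98-5p was 1.24-fold lower (1.17 to 1.32) and let-7b-5p 1.15-fold lower, while let-7e-5p was 1.04-fold lower and turned slightly higher under 4 of 11 alternatives, TMM factors among them. The family sum was 1.12-fold higher in denervated FAPs, with a log2 ratio of 0.16, or 0.13 without the second let-7a row, that kept its sign in every alternative.

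The arms of let-7d differed in opposite directions in this comparison. Its 5p arm was 1.40-fold higher in denervated than in normal FAPs, and its 3p arm, with 2199 CPM in denervated and 2650 CPM in normal FAPs, was 1.20-fold lower (1.18 to 1.23). The 5 muscle fibre miRNAs summed to 0.316% of the denervated and 0.0903% of the normal library, all 5 at least 2-fold higher in denervated FAPs. The 2 endothelial miRNAs summed to 0.166% of the denervated and 0.540% of the normal library, both at least 2-fold lower. Of the 8 leukocyte miRNAs, 4 were at least 2-fold higher and 0 lower. Of the 5 epithelial miRNAs that averaged 10 CPM or more, 4 were at least 2-fold lower and 0 higher. The 1 erythroid miRNA at that level was at least 2-fold higher. None of the 8 mesenchymal miRNAs in the table reached 2-fold. The part of these lists in the members' ratios was not tested.

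Cardiotoxin against denervated FAPs sets the 2 injuries side by side. let-7b-5p was 7.41-fold lower in cardiotoxin (7.22 to 7.59), let-7e-5p 6.57-fold lower (6.28 to 6.88), let-7c-5p 4.62-fold lower (4.53 to 4.70) and let-7a-5p 3.52-fold lower (3.47 to 3.57), or 1.99-fold for its exact row. The summed let-7a lost its 2-fold call without miR-21a-5p in the totals, at a log2 ratio of -0.86. miR-98-5p was 2.13-fold higher in cardiotoxin (2.01 to 2.25), a call lost with TMM factors, DESeq2 size factors and the authors' normalized signal. So 4 of 9 members were at least 2-fold lower and 1 of 9 at least 2-fold higher, where 38.6% of the 446 items were lower and 33.6% higher by that measure. let-7d-5p was 1.92-fold lower, and its log2 ratio of -0.94 turned to 0.02 without miR-21a-5p in the totals. It was past 2-fold lower with TMM factors (-1.33), DESeq2 size factors (-1.24) and the authors' normalized signal (-1.33), where 5 of 9 members were. The log2 ratios of let-7f, let-7g and let-7i were -0.25, 0.02 and 0.23, and each changed sign under at least 2 alternatives. The family sum was 1.62-fold lower in cardiotoxin (log2 ratio -0.69, or -0.55 without the second let-7a row), but its log2 ratio turned to 0.27 without miR-21a-5p in the totals and to 0.054 without the 5 highest miRNAs. Set against denervated FAPs, cardiotoxin FAPs had every one of the 8 leukocyte miRNAs and both endothelial miRNAs higher, and every one of the 8 mesenchymal miRNAs lower, by at least 2-fold. Of the 5 muscle fibre miRNAs, 4 were at least 2-fold lower in cardiotoxin and 0 higher. Of the 5 epithelial miRNAs that averaged 10 CPM or more, 3 were higher and 2 lower by that measure. The part of these lists in the members' ratios was not tested here either.

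The choice of scaling shifts all members of a comparison together and leaves their order as it is. Against the totals used above, leaving miR-21a-5p out raised the median log2 ratio of all 446 items by 1.06 in cardiotoxin against normal, and leaving out the 5 highest miRNAs raised it by 0.78. TMM factors moved it by -0.28 and DESeq2 size factors by -0.17. The family sum moved with it: without miR-21a-5p the log2 ratio in cardiotoxin against normal was 0.55 for the family and 0.97 for the median item, beside -0.53 and -0.09 with full totals. In denervated against normal the same 4 choices moved the median by between 0.04 and 0.11.

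**Figure D5:**
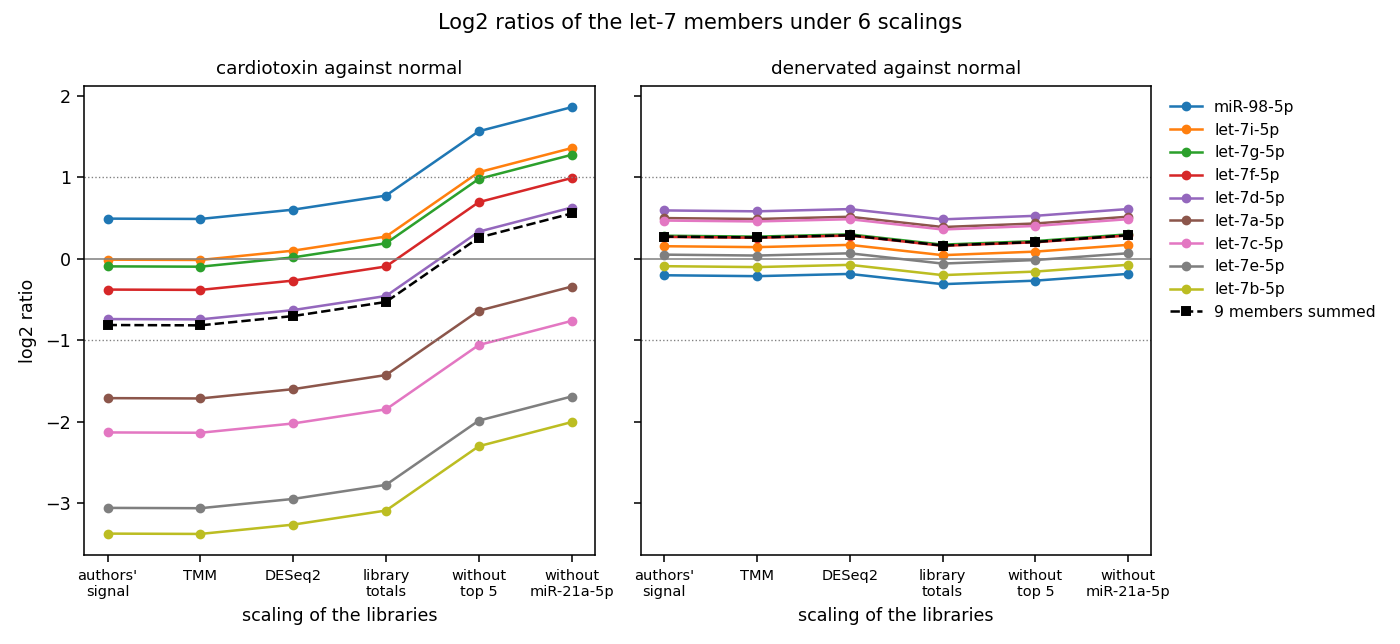
Log2 ratio of each member (coloured lines) and of the 9 members summed (dashed) under 6 ways of scaling the libraries, for the comparisons of the cardiotoxin and denervated libraries with the normal one. The lines keep their order, let-7b and let-7e stay below -1 in cardiotoxin against normal, and let-7d, let-7f, let-7g, let-7i and the family sum cross 0 there, while in denervated against normal let-7e alone crosses 0.

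Outside the members, 6 rows of the table carried the let-7 seed, and 1 of them averaged 10 CPM or more. This row is named let-7j, but its sequence is that of let-7i with an added A at the 3′ end.
row named let-7j: tGAGGTAGtagtttgtgctgtta
It matched no mouse hairpin of the RefSeq set exactly. It had 2128 CPM in cardiotoxin, 3333 CPM in denervated and 1900 CPM in normal FAPs. Its log2 ratio in cardiotoxin against normal was 0.16, but -0.12 with TMM factors. It was 1.75-fold higher in denervated than in normal FAPs (1.71 to 1.80), beside 1.03-fold for let-7i-5p itself. The other 5 rows, which include let-7a with added bases under names of other species, stayed below 10 CPM in each library.

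The mature mouse miRNAs most like the summed family were sought among 86 others with a mean of at least 1000 CPM, by the distance between their pairs of log2 ratios over the 3 libraries. The 5 nearest were miR-328-3p at a distance of 0.358, miR-26b-5p at 0.379, miR-23a-3p at 0.431, miR-101b-3p at 0.451 and miR-29a-3p at 0.486. Their direction was not always that of the family sum, which had a log2 ratio of 0.16 in denervated against normal. In that comparison miR-328-3p had -0.18, miR-26b-5p -0.04 and miR-23a-3p -0.24, while miR-101b-3p had 0.10 and miR-29a-3p 0.65. miR-26b-5p had 4800 CPM in cardiotoxin, 8451 CPM in denervated and 8669 CPM in normal FAPs, and miR-23a-3p had 15704 CPM, 17315 CPM and 20501 CPM in the same order. With 3 libraries and shared totals this likeness is a description of these libraries only.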

How the data were processed

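Per the labels' protocols, small RNA libraries were prepared with an Illumina TruSeq kit. StringTie is named without a version in the submitters' processing notes. Not given in the sources used here: aligner, miRNA annotation and genome build. In the deposited table used here, each row had estimated counts, a normalized signal equal to those counts times 1 factor per library, and a p-value; the deposited p-values and a second, shorter sheet of signals were not used. Counts were whole (within 1e-06) for 88.4% of the rows in cardiotoxin, 88.0% in denervated and 87.9% in normal. The member rows were mostly not whole: 9 of 10 in cardiotoxin, 9 in denervated and 10 in normal had fractions. From the counts, rows of 1 mature mouse name were summed, CPM was computed over library totals, and log2(CPM + 1) ratios were taken for items that averaged 10 CPM or more. The added 1 makes log2 ratios of low items smaller; printed folds are plain ratios of CPM. Log2 ratios past 2-fold were counted. Intervals are 95% Clopper-Pearson intervals of rounded counts, and 3 counts were the limit of a count of 0 (0.825 CPM in cardiotoxin, 0.417 in denervated and 0.671 in normal). No test across conditions was run, since each has 1 library. Ratios were recomputed with TMM (edgeR 4.0.16), DESeq2 1.42.0 size factors, the authors' signal, totals without miR-21a-5p or the 5 highest miRNAs, the highest row of each name, other pseudocounts (0.5, 10) and other minimum levels (none, 100 CPM). Leaving out the let-7a row with let-7c sequence was chosen after seeing the data. The code for ratios, calls and intervals was tested on simulated counts with known folds and counting error only (Python 3.11.15, scipy 1.17.1). The simulation held no divided reads and no spread between mice, and it did not examine the scaling of the libraries. Named were all 9 members, other let-7 and miR-98 rows, rows with the same seed, the transcript partners, and the 5 miRNAs nearest the family sum. The members and lists were chosen with earlier results of these data known. Endothelial, epithelial and erythroid lists were also summed: endothelial 1.93%, 0.166% and 0.540%, epithelial 290.1, 470 and 904 CPM, and erythroid 18.7, 21.0 and 6.93 CPM, for cardiotoxin, denervated and normal. The epithelial sum mixes directions in cardiotoxin against normal. There miR-200b-3p was 2.91-fold and miR-200c-3p 5.55-fold higher, while miR-203-3p was 7.45-fold lower and miR-205-5p had 0 counts in cardiotoxin.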

Additional observations from a re-analysis of the deposited data

Results flagged for a closer look

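The row named let-7j, whose sequence is let-7i with an added 3′ A, is no member and entered no family sum. It had 2128 CPM in the cardiotoxin library and 3333 CPM in the denervated library, each above the 1900 CPM of the normal library. It was listed here because a signal outside the members exceeded that of the control library. For cardiotoxin the direction depends on the scaling: the let-7j log2 ratio against normal was 0.16 with library totals and turned negative with TMM factors (-0.12), DESeq2 size factors and the authors' signal. With 1 library per condition this was not tested beyond counting error.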

How the results depend on the processing

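The log2 ratio of the family sum, cardiotoxin against normal, was -0.53; it was -0.82 with TMM factors, -0.70 with DESeq2 size factors, -0.81 with the authors' signal, -0.41 without the second let-7a row, 0.55 without miR-21a-5p in the totals and 0.26 without the 5 highest miRNAs. Denervated against normal it was 0.16, and under the same settings 0.26, 0.29, 0.27, 0.13, 0.29 and 0.21, with 0.15 for the highest row of each name. Cardiotoxin against denervated it was -0.69, and under the same settings -1.08, -0.99, -1.08, -0.55, 0.27 and 0.054, with -0.68 for the highest row of each name. The sign turned where the totals left out miRNAs that hold unequal shares of the libraries. The count of members at least 2-fold higher, cardiotoxin against normal, was 0, but 3 without miR-21a-5p and 2 without the 5 highest miRNAs. The count lower was 4, but 2 without miR-21a-5p, 3 without the 5 highest miRNAs and 3 without the second let-7a row. Cardiotoxin against denervated, the count higher was 1, but 0 with TMM, with DESeq2 size factors and with the authors' signal, and 2 without miR-21a-5p. The count lower was 4, but 5 with TMM, with DESeq2 size factors and with the authors' signal. It was 3 without miR-21a-5p and 3 without the second let-7a row. Over 11 alternatives, 5 of 9 members kept their sign in cardiotoxin against normal and in cardiotoxin against denervated, and 8 of 9 in denervated against normal. No paired analysis was possible because each condition has 1 library and its replicate number is only a name; for the same reason no replicate could be left out. Depth limits the rare 3p arms, where 7 or fewer counts stand behind a value.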
